A study of Rattus norvegicus with 6 samples.

Results

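The genes described here are the 7 rat genes Stim1, Stim2, Orai1, Orai2, Orai3, Trpc1 and Trpc6, which encode the calcium sensors and channels of store-operated calcium entry together with a pair of receptor-linked TRPC channels. They were taken by gene symbol from a table of 40456 genes, and all 7 were found, each as 1 entry. All 7 passed edgeR's expression filter, which left 14216 genes to be tested. RNA was sequenced from H9c2, an established line derived from embryonic rat heart that is kept as cardiomyoblasts and can be moved towards muscle in culture. Every library came from wild-type cells that had spent 5 days in reduced-serum medium with 1 µM retinoic acid, and that then received 25 nM of a gapmer by transfection over 24 h. A gapmer is a short antisense oligonucleotide with locked nucleic acid ends that recruits RNase H to its matching RNA. In 3 libraries the gapmer was a negative control, and in the other 3 it was directed against the long non-coding RNA Tug1. A single gapmer was used for each arm, so effects of the Tug1 loss and of that oligonucleotide itself cannot be told apart. The labels give each library a replicate number but do not say whether replicates were separate cultures, so p-values measure the spread between these libraries, which may be technical. The gapmers that define the groups are given 5′ to 3′ in capitals throughout, as the whole oligonucleotide is designed.
Tug1 gapmer: ATTCAGTAGACAGCTA
Negative control gapmer: GCTCCCTTCAATCCAA

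Store-operated entry refills the calcium store of the endoplasmic reticulum. When a receptor coupled to Gq activates phospholipase C, inositol trisphosphate opens release channels in the reticulum and the store empties. STIM proteins span the reticulum membrane, sense the fall in luminal calcium, gather where the reticulum touches the plasma membrane, and open ORAI channels there. TRPC channels are cation channels that open downstream of the same receptors, and TRPC6 is gated by diacylglycerol, the other product of phospholipase C. In heart muscle these genes are studied mainly for hypertrophic signalling through calcineurin and NFAT.

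Library totals ran from 12978548 to 13544337 counts, and levels of genes below are CPM, counts scaled to library size, with TMM, edgeR's correction for library composition. Sums over the marker lists are CPM on library totals, without TMM. The TMM factors were 0.979 to 0.986 in controls and 1.01 to 1.02 after knockdown. The list sums are thus slightly lower in controls and higher after knockdown than on the TMM scale. Tug1 was at 54.0 ± 1.77 CPM (SD, n = 3) with the control gapmer and at 11.9 ± 0.609 CPM (SD, n = 3) with the Tug1 gapmer, with no overlap, so the libraries follow their labels. The labels call the cells cardiomyocytes. Of 6 cardiomyocyte markers, 5 (Nkx2-5, Myh6, Tnni3, Nppa and Ryr2) had 0 to 4 counts in every library. The sixth, Myl2, was the only one tested and rose from 0.54 to 1.28 CPM (log2 fold change 1.23, SE 0.391). The list of 6 summed to 0.757 to 0.982 CPM in controls and 1.08 to 2.22 CPM after knockdown. Skeletal myoblast markers were present, with Myog at 275 CPM and Myh3 at 176 CPM in controls, but Myf5 had 0 or 1 count. Their list of 6 had 4 genes higher and 1 lower after knockdown, and summed to 532.9 to 549.6 CPM in controls and 846.2 to 897.8 CPM after knockdown. In these marker counts, higher and lower mean an adjusted p under 0.05 in the edgeR test described below. That test called 30.8% of all tested genes higher and 30.9% lower, so the counts alone do not set the markers apart. Smooth muscle markers (3 of 6 higher, 0 lower) summed to 953.8 to 1047 and 1147 to 1312 CPM, and fibroblast markers (1 of 5 tested higher, 2 lower) to 36350 to 37740 and 32660 to 35360 CPM. Endothelial markers (0 of 1 tested changed, Cldn5 at 0) summed to 2.95 to 4.38 and 2.84 to 3.99 CPM, and leukocyte markers (Cd68 higher of 2 tested, Ptprc and Adgre1 at 0) to 10.87 to 12.49 and 16.02 to 17.73 CPM. The part of these marker shifts in the results below was not tested, and in bulk RNA fewer cells of a type and less RNA per cell cannot be told apart.

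All 7 genes differed between the groups, 3 higher and 4 lower after knockdown, at an adjusted p under 0.05 in edgeR's quasi-likelihood test with adjustment over all tested genes. Both STIM sensors and the channel Orai3 rose, by 1.26-fold to 1.98-fold. The channels Orai1 and Orai2 fell to 69.0% and 79.0% of control, and Trpc1 and Trpc6 fell to 56.3% and 54.6%. The same test called 61.7% of all tested genes, 30.8% higher and 30.9% lower, so a call on its own does not set these genes apart. Control and knockdown libraries did not overlap for any of the 7, against 65.6% of all tested genes. The median log2 fold change was -0.34 over the 7 genes and 0.00 over all tested genes.

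**Figure D1:**
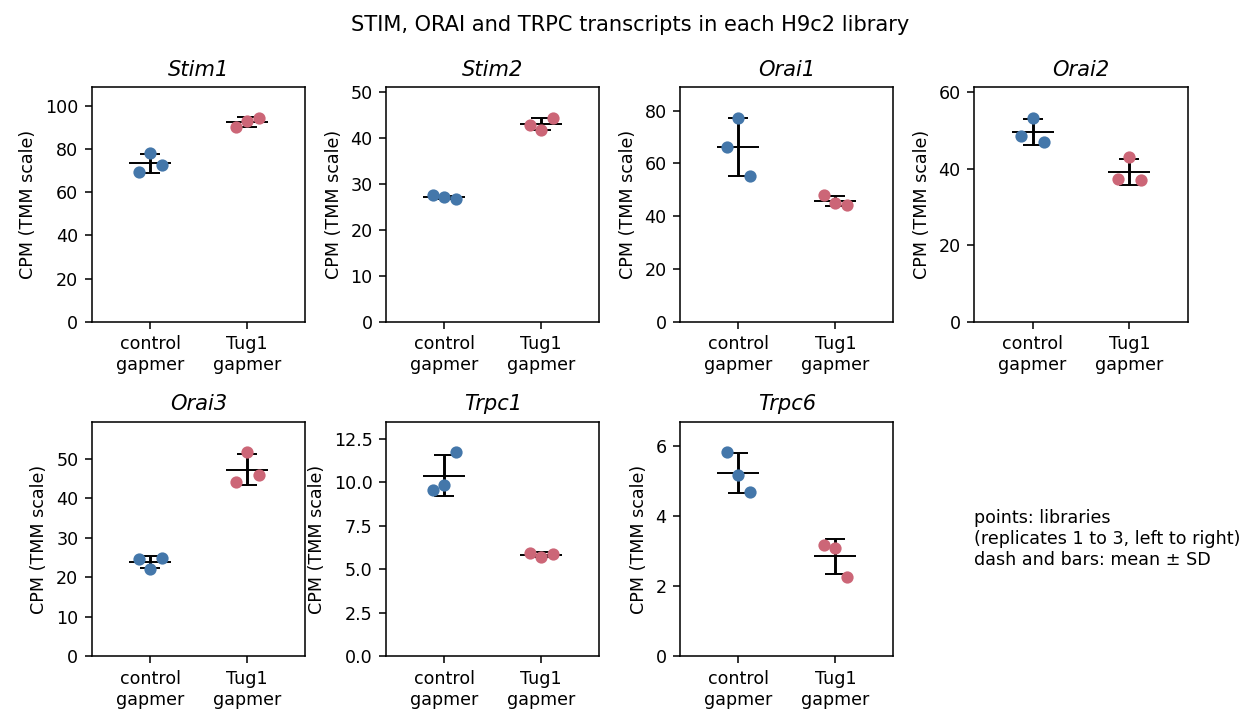
Level of each gene in CPM on the TMM scale (y axis, from 0, scaled for each gene) in the 3 control gapmer libraries (blue) and the 3 Tug1 gapmer libraries (red). Points are libraries and bars are the mean ± SD. Stim1, Stim2 and Orai3 are higher in every knockdown library and Orai1, Orai2, Trpc1 and Trpc6 are lower in every one.

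Stim1 encodes the main sensor that opens ORAI channels when the store is depleted. Its level was 69.2, 78.2 and 72.8 CPM in control replicates 1 to 3 and 90.2, 92.8 and 94.5 CPM in knockdown replicates 1 to 3. The lowest knockdown library lay above the highest control library. The group means were 73.4 ± 4.53 and 92.5 ± 2.17 CPM (SD, n = 3), and the log2 fold change from control was 0.33 with an SE of 0.057 (edgeR, adjusted p 2.37e-05). For 49.2% of tested genes the absolute change was smaller. The call did not hold with an offset for gene length, at 0.05.

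Stim2 encodes a relative of Stim1 that responds to smaller drops in luminal calcium and helps to set resting calcium. It was at 27.5, 27.0 and 26.7 CPM in the controls and at 42.8, 41.6 and 44.3 CPM after knockdown. The controls were nearly equal, with an SD of 1.44% of the mean, closer than counting alone gives (5.34%), and all 3 knockdown libraries were higher. The log2 fold change was 0.67 with an SE of 0.0691 (edgeR, adjusted p 1.84e-08), from a mean of 27.1 ± 0.388 to 42.9 ± 1.34 CPM (SD, n = 3). The log2 ratio of Stim1 to Stim2 counts within a library fell from 1.44 ± 0.1 to 1.11 ± 0.0435 (SD, n = 3), and the groups did not overlap. Such a ratio does not depend on how libraries are scaled. With 3 libraries against 3 an exact permutation test, two-sided, cannot go below p = 0.1, which this ratio reached.

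Orai1 encodes the pore of the calcium release-activated channel. It was at 66.0, 77.3 and 55.4 CPM in the controls and at 47.8, 45.0 and 44.3 CPM after knockdown. The controls were the most spread of any of the 7 genes, with an SD of 16.5% of the mean where counting alone gives 3.41%, and control replicate 3 came nearest to the knockdown libraries. The log2 fold change was -0.53 with an SE of 0.0843 (edgeR, adjusted p 8.47e-06). It ran from -0.65 without control replicate 3 to -0.41 without control replicate 2, and was called in both.

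Orai2 encodes a second pore subunit, which can join Orai1 in mixed channels. It was at 48.5, 53.3 and 47.0 CPM in the controls and at 37.4, 43.0 and 37.2 CPM after knockdown. Knockdown replicate 2 was the highest of its group and lay below every control. The log2 fold change was -0.34 with an SE of 0.0721 (edgeR, adjusted p 0.000282). Its fall was not shown to differ in size from that of Orai1: their log2 count ratio changed by -0.18 (SE 0.123), the groups overlapped, and the exact permutation p was 0.3.

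Orai3 encodes the third pore subunit, which takes part in store-operated channels and in channels opened by arachidonic acid. It was at 24.5, 22.1 and 25.0 CPM in the controls and at 44.1, 51.6 and 45.8 CPM after knockdown. Each knockdown library lay well above the controls. The log2 fold change was 0.98 with an SE of 0.0781 (edgeR, adjusted p 2.39e-10), which is larger in absolute size than that of 89.7% of tested genes. Orai3 thus moved against its paralogues. The log2 ratio of Orai1 to Orai3 counts was 1.46 ± 0.329 in controls and -0.04 ± 0.158 after knockdown (SD, n = 3), a change of -1.50 (SE 0.21). The ratio of Orai2 to Orai3 changed by -1.32 (SE 0.11). Both ratios separated the groups without overlap (exact permutation p = 0.1 for each, the smallest possible). That separation follows from the single genes, which moved in opposite directions without overlap, and adds no support to their calls.

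The promoters of Orai1 and Orai3 are shown because these paralogues moved in opposite directions. The sequences are the 250 bases before the RefSeq start site on the rat assembly GRCr8, 5′ to 3′ on the gene's strand, with GC boxes (GGGCGG) and CCAAT boxes (CCAAT) on either strand in capitals.
Orai1, chr12:39209031-39209280, minus strand: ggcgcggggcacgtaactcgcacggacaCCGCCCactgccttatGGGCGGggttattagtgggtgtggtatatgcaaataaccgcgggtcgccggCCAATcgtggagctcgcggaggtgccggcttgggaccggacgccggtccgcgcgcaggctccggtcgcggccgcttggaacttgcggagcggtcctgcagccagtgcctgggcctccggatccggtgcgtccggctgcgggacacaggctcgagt
Orai3, chr1:191811421-191811670, plus strand: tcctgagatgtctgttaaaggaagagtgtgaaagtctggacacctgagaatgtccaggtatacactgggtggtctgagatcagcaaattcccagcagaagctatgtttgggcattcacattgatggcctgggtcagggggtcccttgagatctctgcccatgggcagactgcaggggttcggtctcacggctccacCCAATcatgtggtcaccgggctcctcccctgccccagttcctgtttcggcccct
The Orai1 window held 33 CpG dinucleotides, 2 GC boxes and 1 CCAAT box, at 69.6% G and C. The Orai3 window held 4 CpG dinucleotides, 0 GC boxes and 1 CCAAT box, at 55.6% G and C. The RefSeq table held promoters for 5 of the 7 genes. Stim1, Stim2 and Trpc6 had 24, 34 and 17 CpG dinucleotides, and the median was 15 over the 12289 tested genes with a promoter. A GC box was found in 3 of the 5 windows and in 53.8% of those of tested genes, and a CCAAT box in 3 of 5 and in 34.6%. The NFAT core GGAAA was found in 0 of 5 and in 54.0% of tested genes, the antioxidant response core TGACNNNGC in 2 of 5 (Stim1 and Trpc6) and in 11.9%, and TATAAA in 0 of 5 and in 7.1%. All were searched on both strands, each GC box also holds a CpG, and a match describes letters in these windows only.

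Summed over Orai1, Orai2 and Orai3, the ORAI level did not separate the groups. The sum was 139.1, 152.7 and 127.4 CPM in the controls and 129.4, 139.6 and 127.3 CPM after knockdown, and its difference of -7.66 CPM had an exact permutation p of 0.6. Within that sum Orai3 made up 17.2% ± 2.58 of the counts in controls and 35.7% ± 1.46 after knockdown (SD, n = 3). Orai1 went from 47.2% ± 3.57 to 34.7% ± 2.38 and Orai2 from 35.6% ± 1.18 to 29.6% ± 1.01 (SD, n = 3). None of the 3 shares overlapped between the groups (exact permutation p = 0.1 for each). For Orai3 this follows from the single genes. Longer transcripts give more counts, so the sums and shares are of counts and not of molecules. Only their change between groups is read here. With 3 libraries per group, the overlap of the ORAI sums does not show a steady total. The STIM sum was 96.6 to 105.2 CPM in the controls and 133.0 to 138.8 CPM after knockdown. These sums and shares were chosen after the single genes had been seen.

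**Figure D2:**
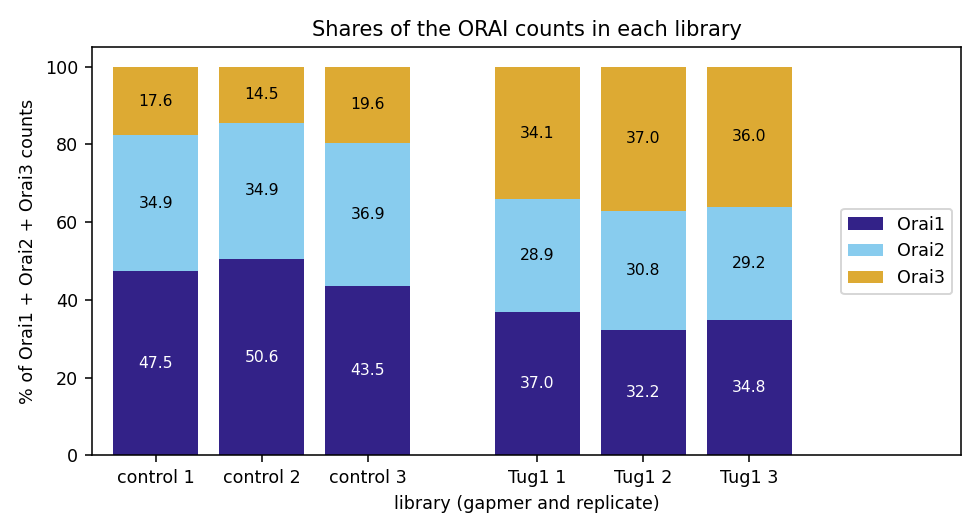
Share of the summed Orai1, Orai2 and Orai3 counts taken by each gene (y axis, percent) in each of the 6 libraries (x axis). Orai3 takes 14.5% to 19.6% in the controls and 34.1% to 37.0% after knockdown.

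Trpc1 encodes a widely expressed TRPC subunit that joins other channels and has been placed with STIM1 in store-operated currents. It had 125, 127 and 152 counts in the controls, or 9.59, 9.83 and 11.7 CPM, and 82, 77 and 78 counts after knockdown, or 5.94, 5.70 and 5.89 CPM. The knockdown libraries were closer to each other (SD 2.23% of the mean) than counting alone gives (11.3%), and all lay below the controls. The log2 fold change was -0.83 with an SE of 0.135 (edgeR, adjusted p 1.39e-05).

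Trpc6 encodes the diacylglycerol-gated channel that has been tied to hypertrophic signalling in cardiac cells. It had 76, 67 and 61 counts in the controls, or 5.83, 5.19 and 4.70 CPM, and 44, 42 and 30 counts after knockdown, or 3.19, 3.11 and 2.27 CPM. Knockdown replicate 3 was the lowest library and the groups did not overlap. The log2 fold change was -0.87 with an SE of 0.193 (edgeR, adjusted p 0.00045). This gene has the fewest counts of the 7: at a mean of 38.7 counts after knockdown, counting alone gives an SD of 16.1% of the mean, against 17.9% observed. Without knockdown replicate 3 the log2 fold change was -0.73 and was still called.

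The falls of Trpc1 and Trpc6 could not be told apart in size. Their log2 count ratio was 0.99 ± 0.305 in controls and 1.05 ± 0.284 after knockdown (SD, n = 3), a change of 0.06 (SE 0.241, exact permutation p = 0.7) that turned negative without control replicate 1 (-0.07) or without knockdown replicate 3 (-0.10). Trpc2, Trpc5 and Trpc7 had 0 to 5 counts in each library and were not tested. Trpc4 had 4, 1 and 4 counts in the controls and 0 in each knockdown library, which allows up to 3 counts or 0.221 to 0.231 CPM per library, for counting error only.

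Over all 21 pairs of the 7 genes, the within-library ratio separated the groups without overlap for 17. Where a gene that rose is paired with a gene that fell, this follows from the lack of overlap of each gene alone. Such pairs add no support to the single-gene calls. Each of these 17 had the smallest exact permutation p that the design allows, 0.1, or 0.124 after Benjamini-Hochberg adjustment over the 21 pairs, so no pair could pass 0.05. The widest changes were between the gene that rose most and those that fell most, with Orai3 over Trpc6 up by 1.87 (SE 0.192) and Orai3 over Trpc1 up by 1.80 (SE 0.117) on the log2 scale. Sensor over channel ratios moved as well: Stim1 over Orai1 rose by 0.86 (SE 0.13) and Stim2 over Orai1 by 1.19 (SE 0.142). These pairs set long genes against a shorter gene, and no ratio was recomputed with the offset for gene length. Stim2 over Orai3 fell by 0.32 (SE 0.105), with the same exact p of 0.1. The 4 pairs with overlapping groups were those among Orai1, Trpc1 and Trpc6 and that of Orai1 with Orai2.

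Gene length moved with the results for the sensors. Across tested genes with a known genomic span, the median log2 fold change climbed from -0.21 in the shortest decile to 0.33 in the longest, where 56.1% of genes were called higher and 11.8% lower. Stim1 (163 kb) and Stim2 (126 kb) lie in that longest decile, and the change of Stim1 equals its median to 2 decimals. With an offset that removes the length trend from each library, Stim1 was at 0.05 with an SE of 0.057 (edgeR, adjusted p 0.437) and no longer called, and Stim2 was at 0.43 and still called. The other genes kept their calls with the offset. Orai3 spans 4.86 kb, in a decile with a median of -0.14 and 18.6% called higher, and its change was 1.12 with the offset. Trpc6 (105 kb) and Trpc1 (50.9 kb) lie in the ninth and the eighth decile, where 20.4% and 26.6% of genes were called lower. With the offset they were at -1.07 and -0.92. Orai1 (13.9 kb) was at -0.48 and Orai2 (20.1 kb) at -0.31.

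**Figure D3:**
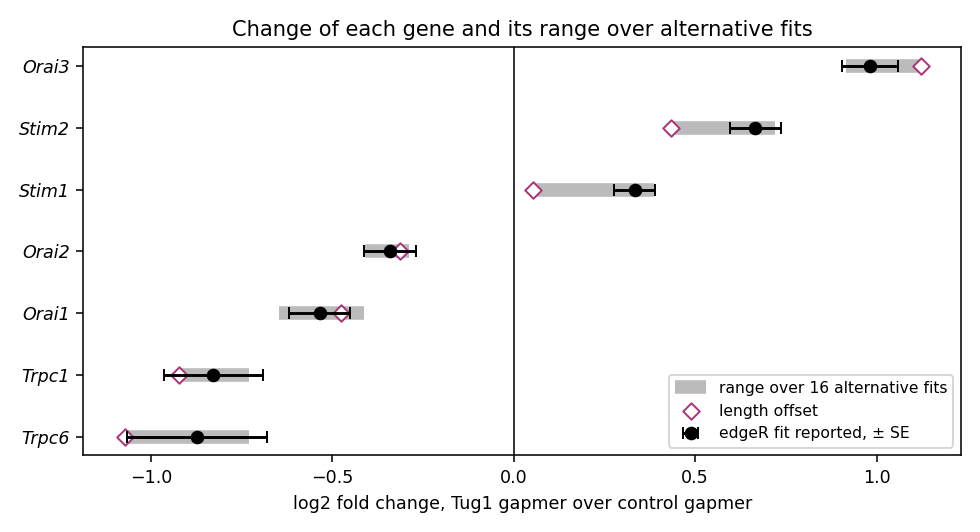
Log2 fold change of each gene (x axis) in the edgeR fit reported (black, ± SE), with the range over 16 alternative fits (grey) and the fit with the length offset (open diamond). Stim1 comes close to 0 with the offset, at 0.05, and no gene changes direction.

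Gene order was taken from the RefSeq table of GRCr8, since the build behind the counts was not given in the sources used here. Neighbours here are the nearest tested gene on each side, however far away. Orai3 sits between Fbxl19 and Setd1a, and both rose (log2 fold change 0.44, SE 0.0696, and 0.54, SE 0.0513). The gene beside Orai1, the long non-coding LOC102546488, is 0.185 kb away and fell by 0.77 (SE 0.202) on the log2 scale, while Morn3, on its other side, was at -0.02 (SE 0.294) and did not pass. Beside Orai2, Prkrip1 rose by 0.18 (SE 0.0676) and Alkbh4 fell by 0.32 (SE 0.12). Orai1 also overlaps another non-coding gene, LOC134481296, and Orai2 overlaps LOC134481277, neither of which was tested. The libraries were stranded, but the use of strand in counting was not given in the sources used here, so reads of such overlapping genes may have been shared. Around Stim1, Rhog fell by 0.26 and Rrm1 was at 0.03. The nearest tested genes to Stim2, Tbc1d19 (-0.03, 79.91 kb away) and Cox7a2l2 (0.30, SE 0.284, 5577 kb away), did not pass the test. Nor did those of Trpc1, U2surp (0.07, 179.3 kb away) and Pls1 (0.45, SE 0.326, 2.47 kb away). On either side of Trpc6, Arhgap42 (287.7 kb away) rose by 0.60 (SE 0.0573) and LOC100359922 (61.06 kb away) fell by 0.78 (SE 0.258). Neighbours thus moved both with and against these genes.

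The nearest profiles were sought among 9065 genes with at least 10 CPM, by the root mean square difference of log2 CPM centred over the 6 libraries. With so many genes changed, close matches are easy to find, and they are a description only. The closest were Dyrk1a (0.0145) and Dap (0.0152) for Stim2, Usp5 (0.0212) and Rab3d (0.0245) for Stim1, Ecm1 (0.0231) and Stub1 (0.0241) for Orai2, and Nr2f6 (0.0245) and Arhgef19 (0.0344) for Orai1. Orai3 lay nearest to Flvcr2 (0.0488) and Pcdhgb8 (0.0497), and Trpc1 to Tyms (0.0443) and Rsbn1 (0.0466). Trpc6, the gene with the fewest counts, had the loosest matches, Zfp511 (0.0994) and Timm8a1 (0.102).

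Upstream of the store, receptor genes were called in both directions. Of 18 receptors coupled to Gq, 10 were tested, 4 fell and 1 rose. Over all tested genes 30.9% fell and 30.8% rose, so these counts alone do not set the receptors apart. Those shares are also the background for the lists that follow. The median log2 fold change of the 10 was -0.51, which includes uncalled genes with few counts such as P2ry2 and P2ry6 (1.28 and 1.39 CPM in controls). The serotonin receptor Htr2a fell from 36.8 to 18.7 CPM (log2 fold change -0.98, SE 0.0885), the vasopressin receptor Avpr1a from 54.6 to 33.0 CPM (-0.73, SE 0.0676), and the thrombin receptor F2r from 718 to 459 CPM (-0.65, SE 0.0508). The bradykinin receptor Bdkrb2 rose by 0.42 with an SE of 0.167 (edgeR, adjusted p 0.0327), a call lost in 5 of 16 alternatives. Among Gq subunits and phospholipase C genes, 5 of 12 tested rose and 4 fell. Gnaq (0.53), Plcb4 (0.55) and Plcg1 (0.51) rose, while Plcd1 (-0.87), Plcb3 (-0.65) and Plcd4 (-0.39) fell. The call of Plcd4 was lost in 4 of 16 alternatives. With the length offset Gnaq was at 0.19 and Plcb4, at 0.16, was no longer called. The release channel Itpr1 rose from 40.2 to 62.6 CPM (0.64, SE 0.077), or by 0.27 with the length offset. Itpr3 was at -0.11 with an SE of 0.074 (edgeR, adjusted p 0.185), and Itpr2 had 3 to 7 counts per library.

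Among 12 tested genes for proteins that act on STIM and ORAI, 6 fell and 2 rose, with a median log2 fold change of -0.17. Cav1, which encodes the caveolar scaffold protein caveolin 1, fell from 380 to 132 CPM (-1.53, SE 0.0539, edgeR adjusted p 3.58e-16). Septin7, a filament protein at the plasma membrane, fell from 124 to 61.1 CPM (-1.03, SE 0.0603). Esyt1, a tether between the reticulum and the plasma membrane, fell from 214 to 119 CPM (-0.85, SE 0.0544), while its relative Esyt2 was at -0.01 (SE 0.0469). Saraf, which promotes the slow inactivation of store-operated entry, fell by 0.28 (SE 0.0512). Stimate, a reticulum protein that promotes STIM1 conformational change, rose from 6.47 to 10.1 CPM (0.64, SE 0.139), and Septin4 rose by 0.56 (SE 0.143). Cracr2b (0.00, SE 0.0936) and Homer1 (0.05, SE 0.09) did not pass.

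Diacylglycerol kinases remove the lipid that opens TRPC6. Of 6 tested, 3 fell and 1 rose, with a median log2 fold change of -0.19. Dgka fell from 126 to 76.0 CPM (-0.73, SE 0.0554), Dgkd from 96.1 to 59.0 CPM (-0.70, SE 0.0611) and Dgkq by 0.22 (SE 0.0679). Among 10 tested TRP channels of other families, 4 rose and 2 fell. Trpm7, a channel fused to a kinase, rose from 120 to 166 CPM (0.47, SE 0.05), or by 0.29 with the length offset, and the lysosomal channel Mcoln1 rose by 0.41 (SE 0.06). Trpm6 rose by 0.58 (SE 0.149) but was not called with the length offset (0.27, edgeR adjusted p 0.111). Trpm4, a channel opened by calcium, fell by 0.42 (SE 0.0998), and Trpm1, at only 1.46 CPM in controls, fell by 1.55 (SE 0.406).

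Calcium pumps, which clear the calcium that enters, had 4 of 7 tested genes higher and 0 lower, with a median log2 fold change of 0.43. The plasma membrane pumps Atp2b1 and Atp2b4 were at 1.48 (SE 0.055) and 0.93 (SE 0.0676), or at 1.27 and 0.74 with the length offset. Of the reticulum pumps, Atp2a1, at 212 CPM in controls, was at 0.70 (SE 0.0579). Atp2a2, at 654 CPM in controls, was at 0.05 with an SE of 0.04 (edgeR, adjusted p 0.334) and did not pass. In the calcineurin and NFAT list, which reads the calcium signal, 5 of 11 tested genes rose and 2 fell. Rcan2 (0.81, SE 0.13), Ppp3cc (0.53, SE 0.0905) and Rcan3 (0.50, SE 0.115) rose, and with the length offset Rcan2 was at 0.49. The NFAT genes Nfatc3 (0.48, SE 0.0543) and Nfatc4 (0.41, SE 0.0689) also rose, while Nfatc2 and Nfat5 did not pass. Ppp3r1, the regulatory subunit of calcineurin, fell by 0.38 (SE 0.0509), and Rcan1, a calcineurin inhibitor whose transcription NFAT itself can drive, fell from 76.4 to 59.3 CPM (-0.37, SE 0.0594). The share of tested genes called was between 50.0% and 75.0% in each of the 8 lists that had tested genes, on either side of the 61.7% over all genes.

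**Figure D4:**
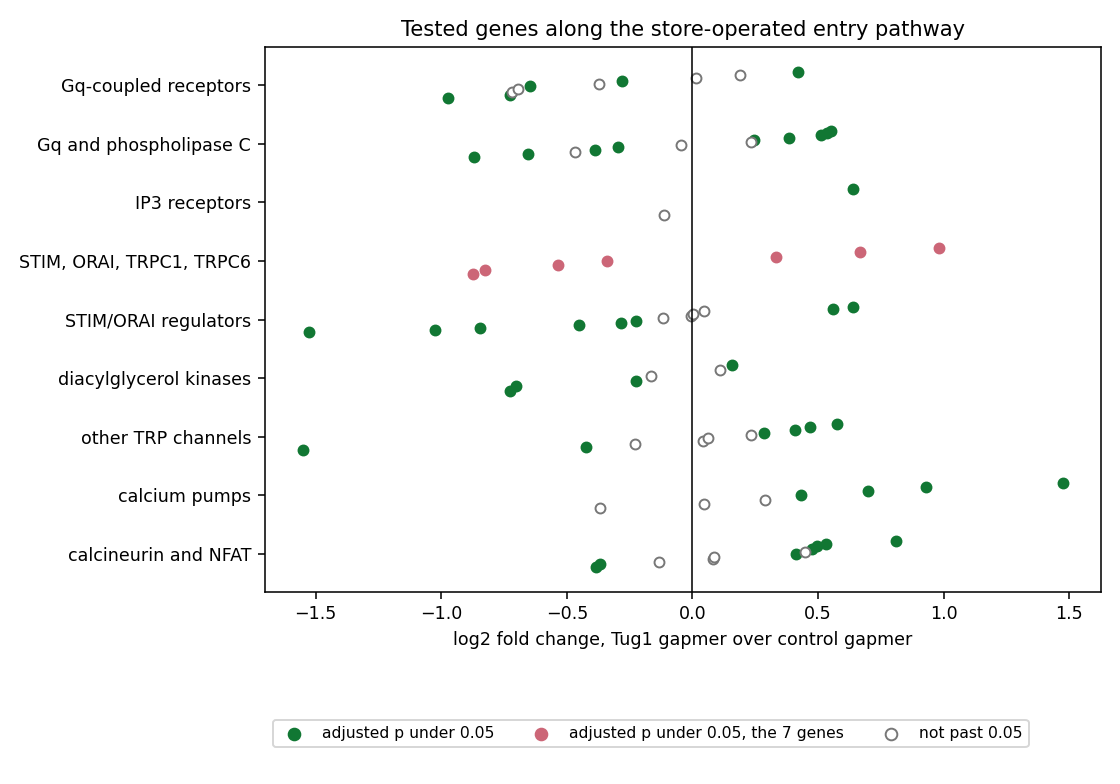
Log2 fold change (x axis) of every tested gene in the 8 lists along the pathway and of the 7 genes described here (red). Filled points had an adjusted p under 0.05 (edgeR) and open points did not. Receptors, STIM and ORAI regulators and diacylglycerol kinases lie mostly to the left, and calcium pumps mostly to the right.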

How the data were processed

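The authors deposited raw whole-number counts per gene symbol for each library, as the values show, without scaling or pooling. Stranded poly-A libraries were made, per the labels' protocols, and FastQC 0.11.7, fastp 0.14.1 and STAR 2.5 are listed in the submitters' processing notes. The counting tool, genome build, annotation and handling of shared reads were not given in the sources used here.

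Counts were analysed with edgeR 4.0.16 in R 4.3.3: expression filter (minimum count 10, minimum total 15), TMM scaling, quasi-likelihood test on all 6 libraries without a block, Benjamini-Hochberg adjustment over 14216 genes, threshold 0.05. Positive log2 fold changes mean higher with the Tug1 gapmer, and an SE is the absolute log2 fold change divided by the square root of F. Replicates differed beyond counting noise (chi-square per degree of freedom 2.15 to 3.55), so none is a copy of another. On simulated counts with these groups and 14216 genes, 71 of 100 genes changed by 0.5 on the log2 scale and 90 of 100 changed by 1 were recovered, with 9 false calls. Only those genes were changed, with the same relative spread between libraries set for every gene. In the data 61.7% of genes were called, so these rates check the code and do not carry over to the data.

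The 7 genes and the lists were chosen with earlier results of these data known. Of each list the named genes are drawn from up to 3 changed genes per direction with the largest change, at least 1 CPM and no overlap, and genes named without a call or below those ranks were chosen after their values were seen. Genomic spans covered 13084 tested genes (92.0%). Alternatives were other size factors, library totals, DESeq2 1.42.0, limma-voom (limma 3.58.1), other filters, an adjusted p under 0.01, a replicate block, a length offset (lowess span 0.3) alone and with the block, and each library left out.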

Additional observations from a re-analysis of the deposited data

How the results depend on the processing

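All 7 genes kept their direction in each of 16 alternatives, and 110 of 112 combinations of gene and alternative kept the call. The alternative with an adjusted p under 0.01 uses the same fit, so only calls could change there. The exceptions were Stim1 with the length offset (0.0524, edgeR adjusted p 0.437) and with the length offset and the replicate block (0.0540, edgeR adjusted p 0.396), which left 6 genes called. With a library left out, log2 fold changes ran from 0.29 to 0.38 for Stim1, 0.65 to 0.69 for Stim2, -0.65 to -0.41 for Orai1, -0.41 to -0.29 for Orai2, 0.91 to 1.03 for Orai3, -0.88 to -0.73 for Trpc1 and -0.96 to -0.73 for Trpc6. Between 7353 and 8987 genes were called over the alternatives. Scaling by library totals moved the median over all tested genes to 0.06 (log2), and no direction among the 7 changed. Of 168 alternative values of the pairwise ratios, 2 changed sign, both for Trpc1 over Trpc6, which ran from -0.10 to 0.23 with a library left out. The values with the replicate block equal the main values by construction, so they could not change sign. IP3 receptors had 2 genes called in place of 1 under the length offset, with the block or not, and also without knockdown replicate 2, as Itpr3 passed. Without a filter 1 further TRPC gene, Trpc4, was called (edgeR adjusted p 0.0177). Of 33 genes checked from the lists, 28 kept their call throughout. Beyond what the offset itself removes, the cause was not tested. Replicate numbers did not pair the libraries (correlations of -0.0053, 0.0298 and 0.027 for numbers 1 to 3), and the replicate block alone called 8848 genes and changed no call among the 7. Depth limits Trpc6 and the untested TRPC genes most, since 1 CPM is 12.98 to 13.54 counts.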
